A study of Chlorocebus aethiops with 12 samples.

Results

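Transcripts of fuel metabolism were followed in COS-1 cells, a fibroblast-like line made from African green monkey kidney. They were chosen by accession from a list of 12 human transcripts of 10 genes. The list comprises the 4 pyruvate dehydrogenase kinases PDK1 (NM_002610), PDK2 (NM_002611), PDK3 (NM_005391) and PDK4 (NM_002612), ANGPTL4 (NM_139314), the insulin receptor substrates IRS1 (NM_005544) and IRS2 (NM_003749), PCK2 (NM_004563), GLUL (NM_002065) and PPARGC1A (NM_013261). Of these 12 accessions, 10 had a probe on the array, 1 for each gene, with 17 of the 41000 non-control probes between them. The list's second variants of ANGPTL4 (NM_001039667) and GLUL (NM_001033044) had none. The filter on dim probes left 9 of the genes among 23757 accessions tested, and PPARGC1A did not pass it.

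The 4 groups were Dex-treated GR+MDFIC cells, vehicle-treated GR+MDFIC cells, Dex-treated GR cells and vehicle-treated GR cells, each with 3 biological replicates. GR is the glucocorticoid receptor, a transcription factor that is activated by its hormone, and all groups, vehicle groups included, had been transfected with it. MDFIC is the MyoD family inhibitor domain containing protein. Dexamethasone (Dex), a synthetic glucocorticoid, was given at 100 nM for 6 h, starting 48 h after transfection in medium with charcoal-stripped serum. The comparisons asked how Dex changed these transcripts in cells with GR, and whether the change differed where MDFIC had been added. In such bulk cultures, a change in the share of responding cells and a change in RNA per cell cannot be told apart.

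Glucocorticoids are hormones of fasting and stress, and in liver, muscle and fat they shift cells from burning glucose towards burning fat and sparing glucose. Pyruvate dehydrogenase, which feeds pyruvate into the citric acid cycle, is switched off when a pyruvate dehydrogenase kinase phosphorylates it. ANGPTL4 is a secreted inhibitor of lipoprotein lipase, the enzyme that frees fatty acids from circulating lipoproteins. IRS1 and IRS2 are the adaptors through which the insulin receptor reaches its downstream kinases. PCK2 is the mitochondrial phosphoenolpyruvate carboxykinase, GLUL makes glutamine from glutamate and ammonia, and PPARGC1A is a transcriptional coactivator of mitochondrial and gluconeogenic genes.

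Signals came from one-colour arrays with probes designed on human sequence, read here from monkey RNA, so levels of different probes cannot be set against each other. Levels are log2 values relative to each array's 75th percentile. On each array, 70.3% to 75.2% of the non-control spots exceeded background clearly enough to carry the scanner software's flag for it, here called well above background. The 12 arrays lay on 3 slides. Slide 1 held the 3 vehicle arrays of GR cells and their Dex replicate 1. Slide 2 held Dex replicates 2 and 3 of GR cells with vehicle replicates 1 and 2 of GR+MDFIC cells, and slide 3 held the Dex arrays of GR+MDFIC cells with vehicle replicate 3. Slide 3 was processed with another version of the software that extracted the signals. It was also dimmer. At the 75th percentile, signals averaged 386 there, while slide 1 averaged 850 and slide 2 averaged 868. A fit with slide as a block therefore gives the effect of Dex in GR+MDFIC cells within slide 3 and in GR cells within slide 1. In each of these, 1 arm is a single array, vehicle replicate 3 on slide 3 and Dex replicate 1 on slide 1. Such a single array adds nothing to the estimate of spread in the blocked fit. The SE, intervals and p of that fit therefore do not measure the spread of that arm, and its calls rest on the spread of other arrays. No slide held both arms of a comparison of GR+MDFIC with GR cells under 1 treatment. The targeted genes and markers of the cell line were not looked up here, since the files pair accessions with no names.

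With Dex, PDK4, ANGPTL4, IRS2 and GLUL rose in GR+MDFIC cells, and PDK4, IRS2 and GLUL rose in GR cells (limma, Benjamini-Hochberg adjusted p under 0.05 over all accessions). That is 4 of 9 members in GR+MDFIC cells, where 6.63% of all tested accessions rose, and 3 of 9 in GR cells, where 4.37% rose. ANGPTL4 passed the filter on dim probes only through its Dex groups, where it was high, so its place among the members that rose supports nothing by itself. In all, 13.5% of accessions passed in GR+MDFIC cells and 7.1% in GR cells. No member fell, against 6.9% of accessions in GR+MDFIC cells and 2.73% in GR cells. The median log2 change over the 9 members was 0.10 in GR+MDFIC cells, against -0.01 over all accessions tested, and 0.10 in GR cells, against 0.01. With slide as a block 3 of 9 members passed in each, against 3.39% of accessions in GR+MDFIC cells and 3.56% in GR cells, and ANGPTL4 was the member that no longer did in GR+MDFIC cells. Groups did not overlap for 5 of 9 members in GR+MDFIC cells, against 32.1% of all accessions, and for 6 of 9 in GR cells, against 26.2%. With each probe tested on its own, 5 of 13 member probes passed in GR+MDFIC cells, where 12.9% of all probes passed in either direction. In GR cells 3 of 13 passed, against 6.7%. All of these member probes rose.

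PDK4, the kinase isoform that fasting and glucocorticoids induce in several tissues, had levels of -1.20, -1.11 and -1.21 in GR+MDFIC cells with Dex, against -4.27, -4.70 and -3.00 in GR+MDFIC cells with vehicle. In GR cells its levels were -1.41, -1.76 and -1.46 with Dex, against -3.23, -2.92 and -3.07 with vehicle. Every Dex array thus lay above every vehicle array. The 3 Dex arrays of GR+MDFIC cells lay close together, whereas their vehicle arrays did not. Vehicle replicate 3, the only one on slide 3, lay 1.49 above the mean of the other 2, which were on slide 2.

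PDK4 averaged -1.17 ± 0.06 with Dex and -3.99 ± 0.89 with vehicle in GR+MDFIC cells (SD, n = 3 each), a log2 fold of 2.82 ± 0.35 (SE), or 7.06-fold (limma, Benjamini-Hochberg adjusted p = 0.000792). Within slide 3 the change was smaller, 1.83, or 3.54-fold, measured against the single vehicle array there. In GR cells PDK4 averaged -1.54 ± 0.19 with Dex and -3.07 ± 0.16 with vehicle (SD, n = 3 each), a log2 fold of 1.53 ± 0.35 (SE), or 2.89-fold (limma, Benjamini-Hochberg adjusted p = 0.0283). Within slide 1 it was 1.67, or 3.17-fold, from the single Dex array there. Leaving out any 1 of the 6 GR arrays ended the call in GR cells without the block, with log2 folds of 1.45 to 1.64 and limma Benjamini-Hochberg adjusted p of 0.0620 to 0.0982. The SE in these fits is shared by all groups, the more widely spread GR+MDFIC vehicle arrays included. In a fit of the GR groups alone the SE was 0.13, and PDK4 passed (limma, Benjamini-Hochberg adjusted p = 0.00350). PDK4 in GR cells also passed without the arrays of slide 3 (limma, Benjamini-Hochberg adjusted p = 0.00252). In a fit of the GR+MDFIC groups alone the SE was larger than the shared one, 0.45. PDK4 passed there with a larger adjusted p (limma, Benjamini-Hochberg adjusted p = 0.0326). Under normexp background correction with quantile scaling the log2 fold was smaller, 1.44 in GR+MDFIC cells and 0.80 in GR cells, and both passed. By size of change, 0.0842% of all tested accessions exceeded PDK4 in GR+MDFIC cells and 0.492% did in GR cells.

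A second PDK4 probe (A_23_P257087) was not well above background on any of the 12 arrays, with levels between -8.37 and -7.79, so 1 probe (A_24_P243749) carries every PDK4 value. PDK1, PDK2 and PDK3, the other isoforms of the kinase, were well above background on every array and did not pass the test in either cell type. PDK2 changed by 0.10 on the log2 scale in GR+MDFIC cells (95% interval -0.05 to 0.24) and by 0.10 in GR cells (-0.04 to 0.25). PDK3 changed by 0.04 in GR+MDFIC cells (-0.07 to 0.16) and by 0.08 in GR cells (-0.04 to 0.19). The intervals of PDK2 and PDK3 lay below those of PDK4.

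PDK1 levels were -0.07, -0.00 and -0.10 in GR+MDFIC cells with Dex, against 0.08, 0.08 and 0.10 with vehicle, with no overlap. Its log2 change was -0.14 (95% interval -0.25 to -0.04), with an adjusted p that missed the threshold (limma, Benjamini-Hochberg adjusted p = 0.0687). In GR cells the change was -0.10 (-0.21 to 0.00). A second PDK1 probe (A_23_P10614) did not pass in either cell type when each probe was tested on its own.

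**Figure D1:**
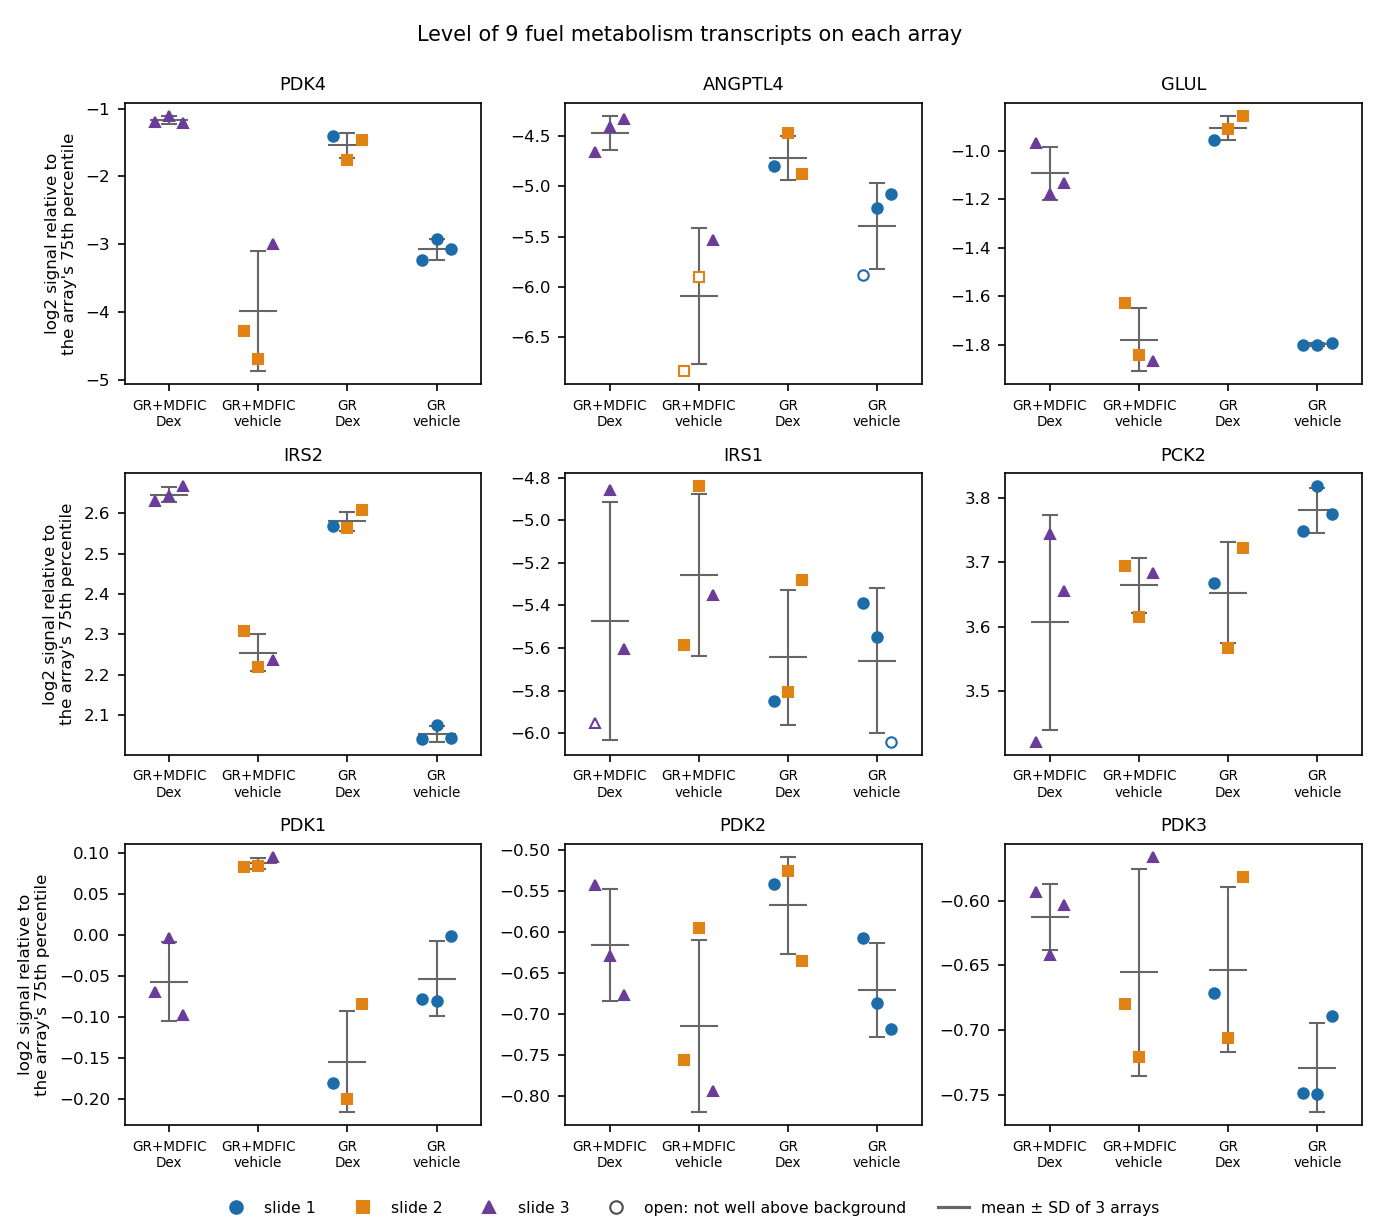
Levels of the 9 tested genes on every array, as log2 above or below that array's 75th percentile (vertical axis), for the 4 groups with GR+MDFIC Dex, GR+MDFIC vehicle, GR Dex and GR vehicle from left to right. Points are arrays, drawn by slide and open where not well above background, and bars are means ± SD of 3 arrays. PDK4 shows all Dex arrays above all vehicle arrays, and the slide 3 vehicle array of GR+MDFIC cells at -3.00 above the slide 2 arrays at -4.27 and -4.70.

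ANGPTL4 was near the limit of measurement in vehicle. Its levels in GR+MDFIC cells were -4.65, -4.40 and -4.33 with Dex, against -6.85, -5.90 and -5.54 with vehicle. In GR cells they were -4.80, -4.46 and -4.88 with Dex, against -5.88, -5.22 and -5.08 with vehicle. All 6 Dex arrays lay above all 6 vehicle arrays. Each of the 3 Dex arrays was well above background in both cell types, against 1 of 3 vehicle arrays in GR+MDFIC cells, the one on slide 3, and 2 of 3 in GR cells.

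In GR+MDFIC cells ANGPTL4 averaged -4.46 ± 0.17 with Dex and -6.10 ± 0.68 with vehicle (SD, n = 3 each), a log2 fold of 1.63 ± 0.32 (SE), or 3.10-fold (limma, Benjamini-Hochberg adjusted p = 0.00979). The call was lost within slide 3, where the log2 fold was 1.08 (95% interval 0.11 to 2.04; limma with slide as a block, Benjamini-Hochberg adjusted p = 0.270). It was also lost in a fit of the 2 compared groups alone (limma, Benjamini-Hochberg adjusted p = 0.0671). In GR cells ANGPTL4 averaged -4.71 ± 0.22 with Dex and -5.39 ± 0.43 with vehicle (SD, n = 3 each). The log2 fold of 0.68 ± 0.32 (SE, 95% interval -0.04 to 1.40) did not pass (limma, Benjamini-Hochberg adjusted p = 0.296), and it was 0.59 within slide 1. Under normexp background correction with quantile scaling the log2 fold was only 0.29 in GR+MDFIC cells, which passed, and 0.16 in GR cells, which did not. Since several vehicle arrays were not well above background and the filter was met by the Dex groups alone, the size of both folds is uncertain.

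IRS2, the insulin receptor adaptor that fasting induces in liver, is represented by its brightest probe (A_24_P154037). Levels were 2.63, 2.64 and 2.67 in GR+MDFIC cells with Dex, against 2.31, 2.22 and 2.24 with vehicle. In GR cells they were 2.57, 2.56 and 2.61 with Dex, against 2.04, 2.08 and 2.04 with vehicle. The change was small, but replicates lay so close together that Dex and vehicle were well apart. The log2 fold was 0.39 ± 0.04 (SE), or 1.31-fold, in GR+MDFIC cells (limma, Benjamini-Hochberg adjusted p = 0.000174) and 0.53 ± 0.04 (SE), or 1.44-fold, in GR cells (limma, Benjamini-Hochberg adjusted p = 3.24e-05). Within slides the folds were similar, 0.41 in GR+MDFIC cells and 0.52 in GR cells, each with a single array in an arm.

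The other 2 IRS2 probes did not all follow. When each probe was tested on its own, A_23_P53838 rose by 0.45 in GR+MDFIC cells (limma, Benjamini-Hochberg adjusted p = 0.0473). In GR cells its change of 0.40 did not pass (limma, Benjamini-Hochberg adjusted p = 0.112). With slide as a block its change was 0.39 in GR+MDFIC cells, which no longer passed, and 0.35 in GR cells. The third, A_24_P207003, had levels of -1.75, -1.64 and -1.74 in GR+MDFIC cells with Dex, against -3.04, -2.89 and -1.76 with vehicle. In GR cells it had -1.80, -2.66 and -2.60 with Dex, against -1.78, -1.74 and -2.17 with vehicle.

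The 4 arrays of slide 2 were the 4 lowest for A_24_P207003, whichever group they belonged to. Its log2 change of 0.85 in GR+MDFIC cells and -0.46 in GR cells did not pass, and within slides both changes were close to 0, at 0.05 and 0.09. Taking the mean of the 3 probes for IRS2 ended its call in GR cells, at a log2 fold of 0.16 (limma, Benjamini-Hochberg adjusted p = 0.597).

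**Figure D2:**
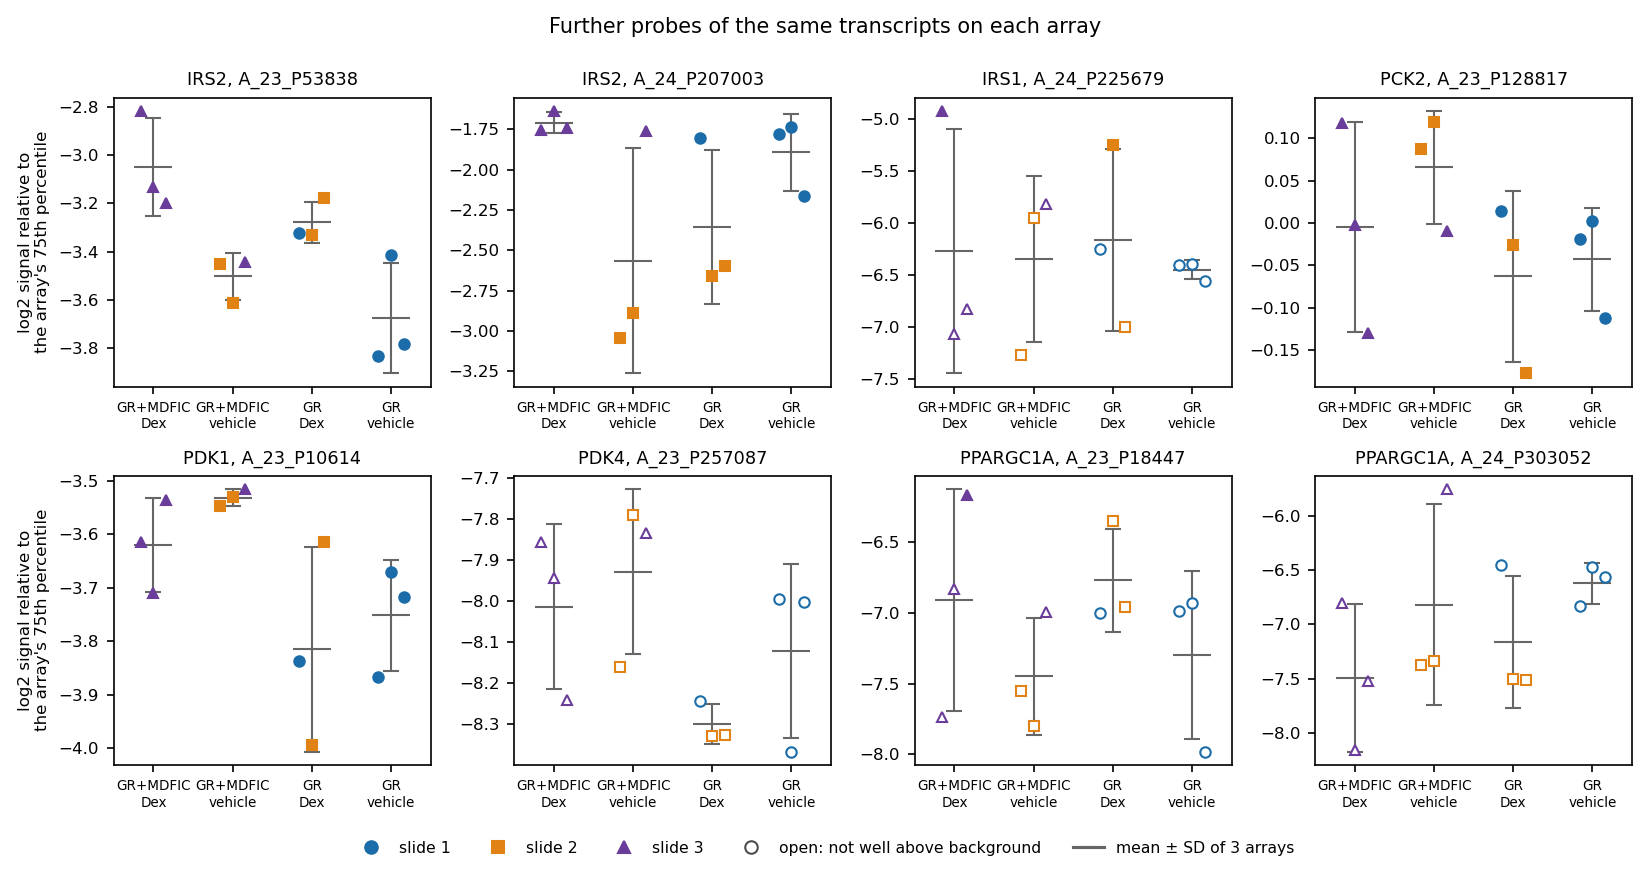
Levels of the further probes of IRS2, IRS1, PCK2, PDK1 and PDK4 and of both PPARGC1A probes, by array, as log2 above or below that array's 75th percentile (vertical axis), with groups in the order GR+MDFIC Dex, GR+MDFIC vehicle, GR Dex and GR vehicle. Points are arrays, drawn by slide and open where not well above background, and bars are means ± SD of 3 arrays. For IRS2 probe A_24_P207003 the slide 2 arrays lie between -3.04 and -2.60 and the other arrays between -2.17 and -1.64.

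IRS1, the other insulin receptor substrate, was dim. Its levels ranged from -5.95 to -4.86 in GR+MDFIC cells with Dex, against -5.59 to -4.84 with vehicle, and from -5.85 to -5.28 in GR cells with Dex, against -6.04 to -5.39 with vehicle. The groups overlapped in both cell types. The log2 change was -0.21 (95% interval -0.91 to 0.48) in GR+MDFIC cells and 0.02 (-0.68 to 0.71) in GR cells, so a change of the size seen for IRS2 was not detectable for IRS1 on these arrays. A second IRS1 probe (A_24_P225679) was well above background on 1 Dex array of each cell type and on no vehicle array.

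GLUL, glutamine synthetase, a gene that glucocorticoids induce in muscle and lung, rose in both cell types. Its levels were -0.97, -1.18 and -1.13 in GR+MDFIC cells with Dex, against -1.63, -1.84 and -1.87 with vehicle. In GR cells they were -0.96, -0.91 and -0.86 with Dex, against -1.80, -1.80 and -1.79 with vehicle. Dex and vehicle arrays did not overlap, and the GR vehicle arrays were nearly identical. The log2 fold was 0.68 ± 0.07 (SE), or 1.61-fold, in GR+MDFIC cells (limma, Benjamini-Hochberg adjusted p = 0.000337) and 0.89 ± 0.07 (SE), or 1.85-fold, in GR cells (limma, Benjamini-Hochberg adjusted p = 7.61e-05). Within slides it was 0.77 in GR+MDFIC cells and 0.84 in GR cells, each with a single array in an arm.

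PCK2, the mitochondrial enzyme that turns oxaloacetate into phosphoenolpyruvate, did not pass in either cell type. Its levels were 3.42, 3.74 and 3.66 in GR+MDFIC cells with Dex, against 3.69, 3.62 and 3.68 with vehicle. In GR cells they were 3.67, 3.57 and 3.72 with Dex, against 3.75, 3.82 and 3.78 with vehicle. The GR groups did not overlap, with Dex lower, and the log2 change was -0.13 (95% interval -0.30 to 0.05). In GR+MDFIC cells the change was -0.06 (-0.23 to 0.12). Its second probe (A_23_P128817) changed by -0.07 in GR+MDFIC cells and -0.02 in GR cells, and passed in neither.

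PPARGC1A, the coactivator, was not measurable. Of its 2 probes, A_23_P18447 was well above background on a single array, a Dex array of GR+MDFIC cells with a level of -6.17. A_24_P303052 was well above background on none of the 12. It was therefore left out of the tests.

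**Figure D3:**
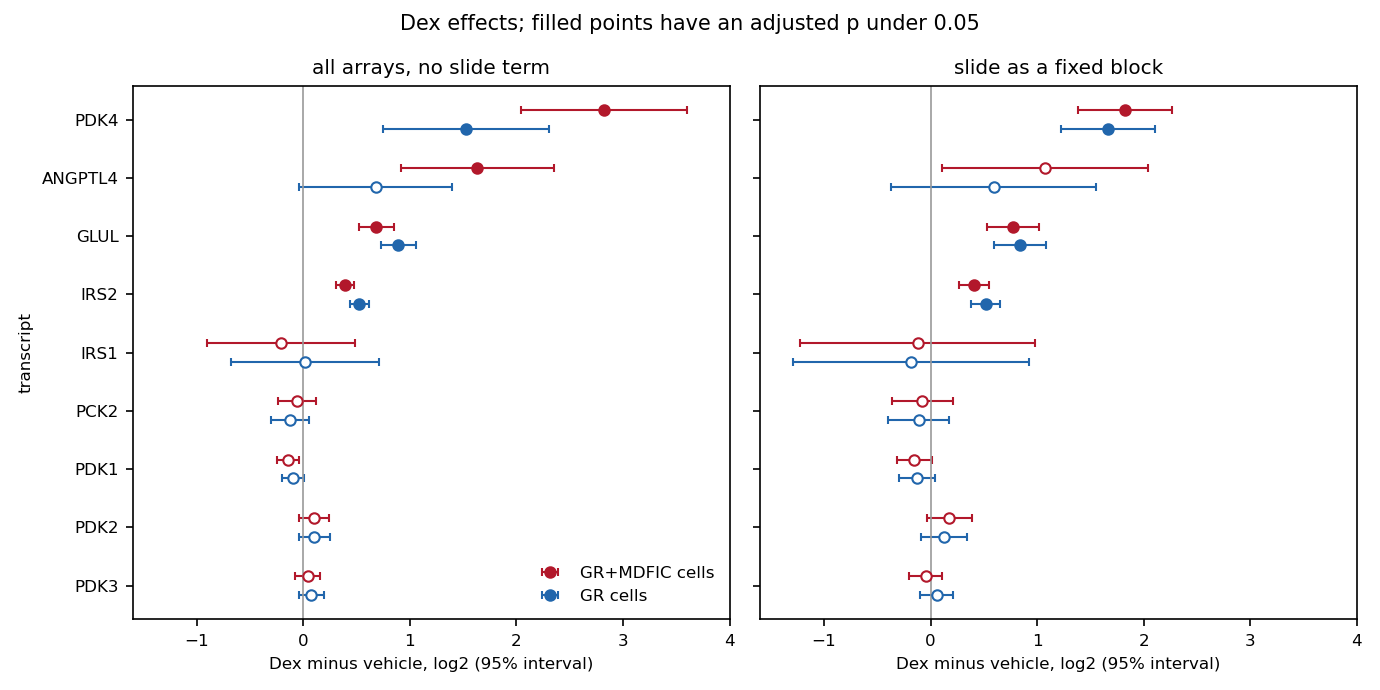
Log2 fold of Dex over vehicle for the tested genes in GR+MDFIC cells and in GR cells, from the limma fit and with slide as a block, with 95% intervals as bars and filled points where the adjusted p is under 0.05. PDK4 is the highest in both cell types, and its value in GR+MDFIC cells is 2.82 without the block and 1.83 with it.

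For each gene, the Dex effect in GR+MDFIC cells was then tested against that in GR cells, as the difference of the 2 effects. No member passed, against 0.0589% of accessions, and 2 of 9 members had an unadjusted p under 0.05 in limma, PDK4 and IRS2, against 9.85% of accessions. For PDK4 the Dex effect was 1.29 ± 0.49 (SE) larger (log2) in GR+MDFIC cells (limma, Benjamini-Hochberg adjusted p = 0.499), with a 95% interval of 0.19 to 2.39. With slide as a block the difference was 0.16 (-0.46 to 0.78). This result changed with vehicle replicate 3 of GR+MDFIC cells, since without it the difference was 1.79 and passed (limma, Benjamini-Hochberg adjusted p = 0.00300). Over all accessions 1798 passed without that array, against 14 with it. The remaining vehicle arrays of GR+MDFIC cells then lay on slide 2 and all their Dex arrays on slide 3, so that slide and Dex cannot be told apart there.

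For IRS2 the Dex effect on its brightest probe was 0.14 ± 0.05 (SE) smaller in GR+MDFIC cells (difference -0.14, 95% interval -0.26 to -0.01; limma, Benjamini-Hochberg adjusted p = 0.499), and the difference was -0.11 with slide as a block. The other IRS2 probes did not share this direction. Their differences were 0.05 for A_23_P53838 and 1.31 for A_24_P207003, the latter -0.04 with the block. Neither passed. With the mean of the IRS2 probes the difference was 0.41 and did not pass. For ANGPTL4 the difference was 0.96 (-0.06 to 1.97), and 0.48 with the block. For GLUL it was -0.21 (-0.44 to 0.03), and -0.07 with the block.

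Cells with MDFIC were also set against cells without it under each treatment. No member passed in vehicle or in Dex, against 0.846% of accessions in vehicle and 5.59% in Dex. At an unadjusted p under 0.05 in limma there were 3 of 9 members in vehicle (PDK4, IRS2 and PDK1), against 17.5% of accessions, and 1 of 9 in Dex (GLUL), against 24.7%. In vehicle IRS2 was 0.20 ± 0.04 (SE) higher (log2) in GR+MDFIC cells, with no overlap and an adjusted p just above the threshold (limma, Benjamini-Hochberg adjusted p = 0.0501). With slide as a block it was 0.19 (limma, Benjamini-Hochberg adjusted p = 0.484). These values are for the brightest IRS2 probe. On the others the log2 difference was 0.17 for A_23_P53838 and -0.67 for A_24_P207003, and neither passed. With the mean of the IRS2 probes it was -0.10.

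PDK4 in vehicle was 0.92 ± 0.35 (SE) lower in GR+MDFIC cells, a log2 difference of -0.92 (limma, Benjamini-Hochberg adjusted p = 0.225). The slide 3 array of GR+MDFIC vehicle, at -3.00, lay among the GR vehicle arrays, whereas both slide 2 arrays lay below them. Without that array the log2 difference was -1.41 and passed (limma, Benjamini-Hochberg adjusted p = 0.00305). The accessions that passed then numbered 558, against 201 with that array. The remaining GR+MDFIC vehicle arrays lay on slide 2 and all GR vehicle arrays on slide 1, so slide and MDFIC cannot be told apart there. With all arrays and slide as a block the log2 difference was -1.21 and did not pass. With Dex, GLUL was 0.19 lower in GR+MDFIC cells, a log2 difference of -0.19 with an unadjusted p of 0.0316 in limma (Benjamini-Hochberg adjusted p = 0.157). In the fit blocked on slide the GLUL difference was -0.08. PDK4 with Dex was 0.37 ± 0.35 (SE) higher (log2) in GR+MDFIC cells, with no overlap, and did not pass (limma, Benjamini-Hochberg adjusted p = 0.558). With slide as a block its log2 difference was -1.05, in the opposite direction, and did not pass either. No slide held Dex arrays of both cell types, so the direction for PDK4 under Dex cannot be decided.

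The transcripts whose pattern over the 4 groups was most like that of each of 3 genes were sought among NM accessions well above background on every array. Likeness was the root mean square difference over 3 group means, each taken relative to the GR vehicle mean on the log2 scale. For IRS2 the nearest was NM_001995, at 0.015. Relative to GR vehicle, IRS2 stood at 0.59 in Dex-treated GR+MDFIC cells, 0.20 in vehicle-treated GR+MDFIC cells and 0.53 in Dex-treated GR cells. NM_001995 stood at 0.60 in Dex-treated GR+MDFIC cells, 0.18 in vehicle-treated GR+MDFIC cells and 0.51 in Dex-treated GR cells.

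For PDK4 the nearest transcript was NM_001008540, at a larger distance of 0.40. PDK4 stood at 1.90 in Dex-treated GR+MDFIC cells, -0.92 in vehicle-treated GR+MDFIC cells and 1.53 in Dex-treated GR cells, against 1.59, -0.30 and 1.52 for NM_001008540 in those groups. For ANGPTL4 the nearest was NM_153000, at 0.17. None of the transcripts searched came as near to PDK4 as NM_001995 did to IRS2. The distance is not scaled to the size of change, which was larger for PDK4. It therefore cannot show whether the pattern of PDK4 is less common than that of IRS2.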

How the data were processed

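RNA of 12 cultures was read on one-colour Agilent arrays with Cy3-labelled RNA from 500 ng of total RNA, per the labels. The deposited values are linear spot intensities, which Agilent Feature Extraction had background-subtracted with no scaling between arrays, per the file headers. The submitters' processing notes name version 12, while slide 3 was processed with 12.0.3.1 and the other slides with 12.0.0.7, per the file headers. Other columns used here were flags, 1 where a spot exceeds background, is saturated or is an outlier, and 0 elsewhere, per the file headers. Median spot and background signals were used for the normexp alternative alone.

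Processed signals were put on the log2 scale and each array's 75th percentile over unflagged non-control spots was subtracted. Outlier spots were set to missing. Probes needed the background flag on all 3 arrays of some group and at least 2 unflagged arrays per group, and the brightest probe stood for its accession. A group-means model over the 12 arrays was fitted in limma 3.58.1 (R 4.3.3) with 8 residual degrees of freedom, or 6 with slide as a block. Tests were two-sided and adjusted by Benjamini-Hochberg over 23757 accessions, with calls at 0.05. The number of arrays limits the precision. Tests were checked on simulated data with independent noise and no slide effect. That check cannot show how they behave with the uneven slides here. Figures were drawn with matplotlib 3.10.9.

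Members, lists and tests were chosen with earlier results of these data known. Every member was named, with likeness given for PDK4, ANGPTL4 and IRS2. Symbols come from the list of members, since the files hold accessions alone. Wider pathway lists, sequences, and the checks of the targeted genes and cell markers need names or sequences and were not used here. The replicate numbers were not used to pair the arrays. Deviations of same-numbered arrays from their group means had correlations of -0.11 to 0.06 in 12 pairs. Most of these pairs lay on different slides, so the correlations cannot decide whether the replicates were paired. Alternatives were other background correction, scaling, filters, probe rules, blocks and thresholds, and leaving out each array. The planned mean signal was not used here, so normexp took medians.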

Additional observations from a re-analysis of the deposited data

How the results depend on the processing

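Of the 7 called effects of Dex, 188 of 198 values over 29 alternative settings kept the call, 10 lost it and 0 changed sign. The 10 were PDK4 in GR cells without each of the 6 GR arrays and at a threshold of 0.01, IRS2 in GR cells with the mean of its probes, and ANGPTL4 in GR+MDFIC cells with slide as a block and in a fit of the compared groups alone. Under a filter requiring the background flag on all 12 arrays, ANGPTL4 was not tested, so the 198 values hold none for it there. In that setting 3 members were called for Dex in GR+MDFIC cells. Of 1061 values for the 38 effects not called, 8 gained a call and 41 changed sign. For MDFIC in vehicle, 0 members were called, but 1 was (IRS2, higher) under normexp with quantile scaling, quantile scaling alone, a filter requiring all 12 arrays, an intensity trend with robust variance, and a percentile over all spots, the last chosen after seeing the data. Another 1 (PDK4, lower, -1.41) was called without the arrays of slide 3, where slide and MDFIC cannot be told apart in vehicle. Leaving out 1 array gave 0 to 1 members for MDFIC in vehicle and 0 to 1 for the difference of the Dex effects. Background correction by normexp with an offset of 50 shrank the log2 folds of dim probes, to 1.44 for PDK4 and 0.29 for ANGPTL4 in GR+MDFIC cells, and to 0.80 for PDK4 and 0.16 for ANGPTL4 in GR cells. Over all accessions, the fit with slide as a block made 806 calls of Dex in GR+MDFIC cells (3216 without it), 846 in GR cells (1687), 20 for the difference of the Dex effects (14), 70 for MDFIC under vehicle (201) and 49 under Dex (1328). A threshold of 0.01 gave 1352, 853, 2, 57 and 59 in that order. Without GR+MDFIC vehicle replicate 3 there were 1798 calls for the difference and 558 for MDFIC in vehicle. With the replicate number as a block the members called stayed at 4 for Dex in GR+MDFIC cells and 3 in GR cells, and at 0 for the rest. The cause of these shifts was not tested.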
